A study of Rattus norvegicus with 7 samples.

Results

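The Rab GTPases are the largest family of small GTPases that direct membrane traffic. The rat array carried 47 probes for 46 *Rab* genes, counted as every gene whose symbol is Rab with a number and at most 1 letter and 1 further digit, with *Rab27a*, *Rab27b* and the effectors left out. A probe counted as detected where its detection p was under 0.02, and a gene was tested when 2 or more of the arrays detected it, with its brightest probe standing for the gene. This left 32 *Rab* genes, 1 probe each, among 9187 tested probes of 22523 on the array.

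The question was which mRNAs come down with TRF2-S, a short splice form of the telomere-binding protein TRF2 that lacks its DNA-binding domain and binds RNA. Cortical neurons of E18 Sprague-Dawley rats were cultured for 9 days, and RNA was co-purified from their extracts with an antibody to TRF2-S or, as the control, with rabbit IgG (RNP immunoprecipitation, RIP). The TRF2-S RIP was measured on 2 arrays and the IgG RIP on 5, named IgG1, IgG2, IgG3, IgG3_0 and IgG3_1x. No treatment or change of genotype is given for any of them, and input RNA was not analysed here, so TRF2-S is set against IgG only. The methods speak of independent experiments in 2 groups, but no label ties an array to a culture of its own, so the p-values measure the spread between these arrays, which may be technical.

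A Rab protein is switched on by an exchange factor that loads GTP and switched off by a GTPase-activating protein that speeds GTP hydrolysis. In its GTP form it sits on 1 kind of membrane and recruits effectors that move, tether or fuse vesicles, and a GDP dissociation inhibitor takes the GDP form back into the cytosol. In neurons Rab3 proteins are known for synaptic vesicle release, Rab5, Rab4 and Rab11 for the uptake and recycling of receptors, and Rab7 for the late endosomes that carry trophic signals along axons.

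The values are log2 signals brought to 1 common mean and SD on every array, so a difference of 1 is a doubling on that common scale, and every fold given is on that scale. The arrays ran from 155.5 to 607.9 in mean signal as deposited, and 7097 to 8326 probes were detected on each. Between 25 and 31 of the 32 tested *Rab* genes were detected on any 1 array, and 24 of them on all 7. The 3 arrays whose names begin with IgG3 stood apart: over the tested probes their correlation with the other 4 arrays was 0.88 to 0.93, whereas that between IgG1 or IgG2 and a TRF2-S array was 0.98 to 0.99. The labels give each of the 5 IgG arrays its own replicate number and do not say whether the IgG3-named arrays share RNA. Each result is therefore given for both sets of controls, on the same scale and the same probes: against all 5 IgG arrays (the full IgG set) and against the pair of IgG1 with IgG2 (the IgG1/IgG2 pair). Where a gene has values for both, the one against the full IgG set comes first. These comparisons share the TRF2-S arrays and the IgG1/IgG2 pair, so the second is no independent repeat of the first.

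Neuronal identity was checked on a list of markers. Of 10 neuronal markers on the array, 7 were detected on all 7 arrays, among them *Tubb3*, *Snap25* and *Syp*, and *Map2* on 6. *Syn1* and *Slc17a7* were detected on 2 arrays each, with normalized log2 signals of 6.80 to 6.91 in the TRF2-S RIP and 6.30 to 6.53 on the IgG arrays. The summed linear level of the 10 markers was 10408 to 11784 in the TRF2-S RIP. It was 9752 to 12192 on IgG1 and IgG2 and 10247 to 17191 on the IgG3-named arrays. *Stmn2* was the brightest of the 10 on every array (normalized log2 signal 12.03 to 13.23). Of 4 astrocyte markers 3 were detected on all 7 arrays (*Gfap*, *S100b*, *Slc1a3*), and *Aqp4* on none. The summed level of the 4 astrocyte markers, on the linear form of the common scale, was 1641 to 1988 in the TRF2-S RIP, 2157 to 2284 on IgG1 and IgG2 and 2080 to 2172 on the IgG3-named arrays. Of 3 oligodendrocyte markers *Olig1* was detected on all 7 arrays, *Mbp* on 2 and *Mog* on none. Their summed level was 5381 to 7072, 7812 to 9174 and 2848 to 4563 in the same order. Most of it was *Olig1* (normalized log2 signal 11.38 to 13.14), beside 6.54 to 6.71 for *Mbp* and 6.14 to 6.45 for *Mog*. Of the microglial markers *Aif1* was detected on 6 arrays (normalized log2 signal 6.58 to 7.10) and *Itgam* and *C1qa* on none, and of the endothelial markers *Cldn5* was detected on 3 and *Flt1* on none. The part of RNA from these cells in the *Rab* values was not tested. In such precipitates fewer cells of a type, less RNA per cell and less of that RNA recovered cannot be told apart.

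No *Rab* gene passed an adjusted p of 0.05 in either comparison (limma, Benjamini-Hochberg over 9187 probes). Against the full IgG set, 0.0327% of all tested probes were called higher and 0% lower, and against the IgG1/IgG2 pair 0.142% were called higher and 0.0109% lower. Before adjustment, 3 of 32 *Rab* genes (9.38%) were higher against the full IgG set with a p under 0.05, namely *Rab3a*, *Rab6b* and *Rab2a*, beside 6.06% of all probes. *Rab3d* alone (3.12%) was lower, beside 6.06% of all probes. Against the IgG1/IgG2 pair, *Rab9a*, *Rab3a* and *Rab18* (9.38%) were higher beside 6.51% of probes, and *Rab3d* (3.12%) was lower beside 6.02%. An analysis of variance for each probe, 1 part of the study's own rule, also called no *Rab* gene in either comparison after adjustment. The study set 0.05 for this test with no adjustment named. Its Z-test, false discovery rate limit and least z-ratio were not applied here. Before adjustment the analysis of variance had 3 *Rab* genes higher and 1 lower at a p under 0.05 against the full IgG set. Against the pair it had 3 higher and 0 lower. The share of all probes was not counted for this test. For the genes with a low limma p, its p against the full IgG set was 0.0202 (*Rab6b*), 0.0279 (*Rab3d*), 0.0381 (*Rab3a*) and 0.0871 (*Rab2a*). Against the pair it was 0.00513 (*Rab9a*), 0.125 (*Rab3a*), 0.152 (*Rab18*) and 0.228 (*Rab3d*). In each comparison other *Rab* genes made up the rest of the count. The limma count of 3 higher against the full IgG set rested on single arrays and on the IgG3-named arrays. It was 0 with these averaged, 1 with them as a random block, 0 without TRF2-2, and 7 without IgG1 or without IgG2, while the count of lower genes was 4 without IgG1, 2 without IgG2 and 0 without TRF2-1. Against the pair, the 3 higher became 0 under median centring and 0 without normalization. They became 8 under quantile normalization, 5 with neqc, 4 with replicate number as a block and 7 of 46 genes without the detection filter. The shares of all probes with a low p were not counted at these other settings. At the main setting the shares of low p lay close to the background. There the family as a whole was not set apart by the number of its members with a low p.

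The middle of the family lay near 0. Against the full IgG set the median log2 fold change of the 32 genes was 0.04, from -0.57 to 0.92, and that of all tested probes was -0.07. On that comparison 19 genes (59.4%) were above 0, beside 41.3% of all probes. This split depended on the scale. When each array was centred on its median instead, 10 of the 32 genes were above 0, with a median of -0.37 where the median of all probes was -0.34. Against the IgG1/IgG2 pair the median was 0.06, from -0.47 to 0.70, with 0.00 for all probes, and 20 genes (62.5%) were above 0 beside 51.4% of all probes. These include *Rab4b*, at 1e-04 and detected on none of the arrays compared.

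The TRF2-S values both exceeded all 5 controls for 4 *Rab* genes (12.5%), *Rab3a*, *Rab2a*, *Rab6b* and *Rab28*, beside 10.3% of all probes. They were below all 5 for *Rab3d* and *Rab13* (6.25%), beside 11.6%. Against the IgG1/IgG2 pair, both were above for 11 genes (34.4%), *Rab10*, *Rab11a*, *Rab11b*, *Rab18*, *Rab28*, *Rab2a*, *Rab34*, *Rab3a*, *Rab6b*, *Rab7a* and *Rab9a*, beside 22.5% of probes. They were below for *Rab3d*, *Rab13* and *Rab15* (9.38%), beside 19.4%. The yardstick here is the distance between arrays of 1 group, whose median over the *Rab* genes was 0.14 between IgG1 and IgG2 and 0.17 between the TRF2-S arrays. The median size of the difference between TRF2-S and IgG1 with IgG2 was 0.13. It was larger than both within-group distances for 9 of the 32 genes (28.1%), beside 29.3% of all probes.

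**Figure D1:**
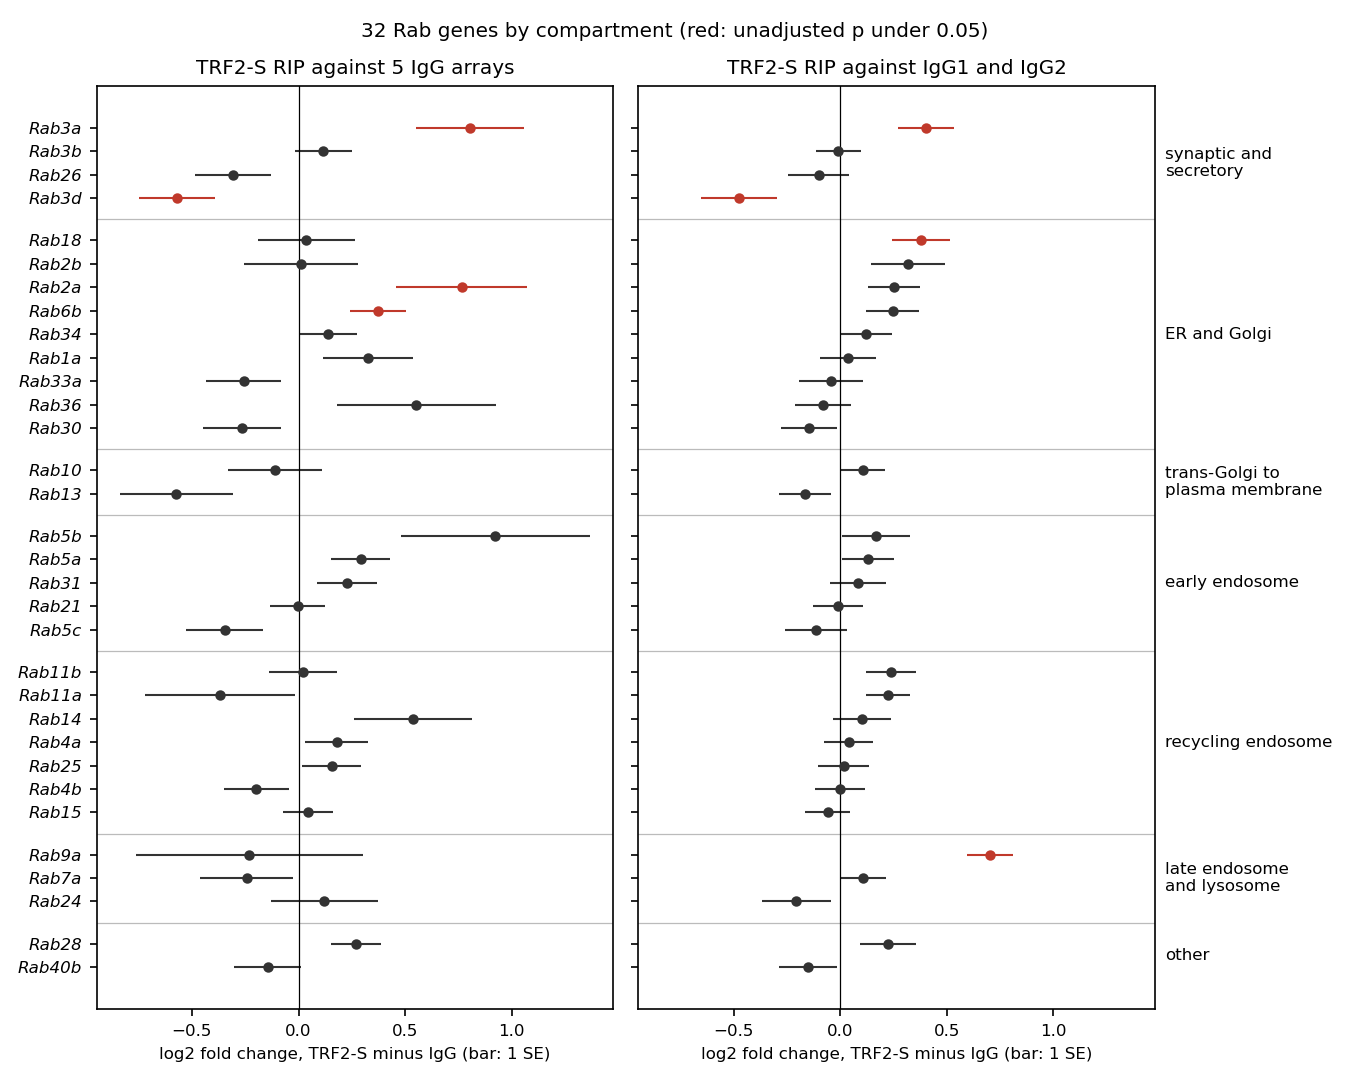
Log2 fold change (TRF2-S minus IgG, common scale) of the 32 tested Rab genes, grouped by compartment, against the full IgG set (left) and against the IgG1/IgG2 pair (right). Bars are 1 SE of the limma fit and red marks an unadjusted p under 0.05, which 4 genes reach in each comparison (Rab3a and Rab3d in both). The bars are longest on the left for Rab9a and Rab5b, whose IgG arrays were furthest apart.

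Synaptic and secretory vesicle Rabs held 2 of the 6 members with a low p, and these had opposite signs. Rab3 proteins coat synaptic and dense-core vesicles and bind the active-zone protein Rim. *Rab3a*, the main synaptic vesicle form, had normalized log2 signals of 7.59 and 7.87 in the TRF2-S RIP. On the IgG arrays, always listed in the order IgG1, IgG2, IgG3, IgG3_0, IgG3_1x, it had 7.40, 7.26, 6.65, 6.70 and 6.63. Neither TRF2-S array overlapped with any control, and the IgG3-named arrays were the lowest. The log2 fold change was 0.80 (SE 0.25, adjusted p = 0.406, 95% interval 0.21 to 1.39), a 1.75-fold difference. Against the IgG1/IgG2 pair it was 0.40 (SE 0.13, adjusted p = 0.278, interval 0.09 to 0.72), a 1.32-fold difference. No alternative tried changed the sign or carried the adjusted p past 0.05, but the size moved, from 0.35 without normalization to 1.72 with neqc against the full IgG set, and from 0.26 without TRF2-2 to 0.56 with neqc against the pair. In the deposited signals, before arrays were scaled, the groups overlapped. *Rab3a* read 134.9 and 193.8 in the TRF2-S RIP and 121.4, 126.4, 140.8, 121 and 126.2 on the IgG arrays, so the dimmer TRF2-S array was below IgG3.

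*Rab3d*, a relative known from regulated secretion in exocrine glands, had the opposite sign. It had 7.61 and 7.90 in the TRF2-S RIP, while the IgG arrays read 7.99, 8.46, 8.55, 8.20 and 8.43. Every control was above both TRF2-S arrays, with TRF2-2 and IgG1 only narrowly apart. On the log2 scale the difference was -0.57 (SE 0.18, adjusted p = 0.406) against the full IgG set and -0.47 (SE 0.18, adjusted p = 0.342) against the IgG1/IgG2 pair. IgG1 and IgG2 themselves lay 0.47 apart for this gene, the widest such distance among the 32. Without IgG1 the second difference was -0.71 and passed the threshold (adjusted p = 0.0272). Without IgG2 it was -0.24 (adjusted p = 1), and it was -0.33 without TRF2-1 and -0.62 without TRF2-2.

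*Rab3b*, a member found in a subset of synapses, showed no separation. Its values were 6.80 and 6.85 in the TRF2-S RIP and 6.81, 6.86, 6.69, 6.45 and 6.74 on the IgG arrays. The groups overlapped. It differed by 0.12 (log2) against the full IgG set and -0.01 against the IgG1/IgG2 pair, with a 95% interval of -0.26 to 0.24 in the latter. *Rab3c* was detected on IgG3_1x alone and was not tested. *Rab26*, which marks clusters of synaptic vesicles bound for autophagy, had -0.31 and -0.10 in the same order. Of the 4 tested genes of this group 2 were above 0 against the full IgG set (50%, beside 41.3% of all probes). Against the IgG1/IgG2 pair 1 was (25%, beside 51.4%), and the medians were -0.10 and -0.05. Over the family such counts against the full IgG set depended on the scale, and they were not recounted by compartment.

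**Figure D2:**
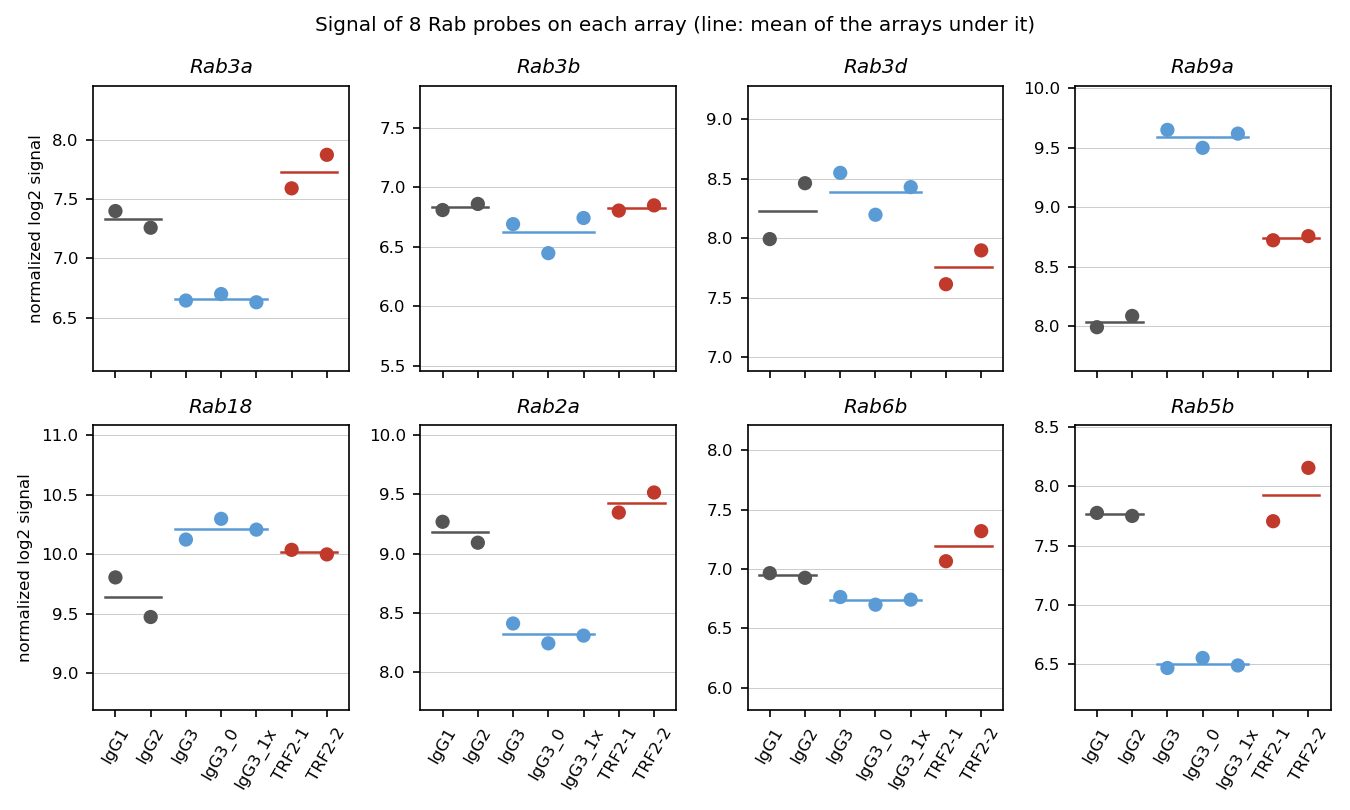
Normalized log2 signal of 8 Rab genes on each of the 7 arrays, with the mean of IgG1 and IgG2 (grey), of the IgG3-named arrays (blue) and of the TRF2-S arrays (red) as lines; each panel spans the same height. Rab3a and Rab3d separate from all 5 IgG arrays in opposite directions, Rab3b overlaps, and Rab9a in the TRF2-S RIP (8.72 and 8.76) lies between IgG1 and IgG2 (7.99 and 8.08) and the IgG3-named arrays (9.50 to 9.65).

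Rabs of the endoplasmic reticulum and Golgi were the largest group, with 9 of 13 genes tested. Against the full IgG set 7 of 9 were above 0 (77.8%, beside 41.3% of all probes) with a median of 0.14. Against the IgG1/IgG2 pair 6 of 9 were (66.7%, beside 51.4%) with a median of 0.12. *Rab2a* controls traffic between the endoplasmic reticulum and the Golgi. It had 9.35 and 9.51 in the TRF2-S RIP and 9.27, 9.09, 8.41, 8.24 and 8.31 on the IgG arrays. All controls were lower, but IgG1 was close to the lower one and most of the distance came from the IgG3-named arrays. This gave a log2 fold change of 0.77 (SE 0.31, adjusted p = 0.406) against the full IgG set and 0.25 (SE 0.12, adjusted p = 0.474) against the IgG1/IgG2 pair. Without any scaling of the arrays the first of these turned to -0.03.

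*Rab6b*, the brain-enriched form of Rab6 that serves return traffic through the Golgi, had 7.07 and 7.32 in the TRF2-S RIP and 6.97, 6.93, 6.77, 6.70 and 6.74 on the IgG arrays. The groups did not overlap. Its log2 fold change was 0.37 (SE 0.13, adjusted p = 0.406) and 0.25 (SE 0.12, adjusted p = 0.492), and it was -0.04 against the full IgG set without scaling. A second *Rab6b* probe was detected on no array and gives no check of the first.

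*Rab18*, found on the endoplasmic reticulum and on lipid droplets, showed how far the choice of control mattered. It had 10.04 and 10.00 in the TRF2-S RIP, 9.81 and 9.47 on IgG1 and IgG2, and 10.12, 10.30 and 10.21 on the IgG3-named arrays. The TRF2-S arrays lay above the first 2 controls and below the other 3. The fitted log2 difference was 0.04 (SE 0.23, adjusted p = 0.927) against the full IgG set and 0.38 (SE 0.14, adjusted p = 0.318) against the IgG1/IgG2 pair. The latter was 0.21 without IgG2 and 0.55 without IgG1. *Rab2b*, a close copy of Rab2a, had 7.62 and 7.89 in the TRF2-S RIP and 7.21, 7.66, 8.11, 7.55 and 8.17 on the IgG arrays, and the groups overlapped. It had a log2 fold change of 0.01 against the full IgG set and 0.32 against the IgG1/IgG2 pair.

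*Rab36*, a Golgi Rab, had 7.31 and 7.55 in the TRF2-S RIP and 7.41, 7.60, 6.49, 6.35 and 6.53 on the IgG arrays. It was detected on IgG1, IgG2 and both TRF2-S arrays and on none of the IgG3-named arrays. With those 3 controls not above background, the fitted log2 fold change was 0.55 against the full IgG set and -0.08 against the IgG1/IgG2 pair. *Rab1a*, which acts in transport from the endoplasmic reticulum to the Golgi, had 0.32 and 0.04. For *Rab30*, another Golgi Rab, the values were -0.27 and -0.15. *Rab33a*, known for Golgi-derived vesicles that add membrane to growing axons, had -0.26 and -0.04. *Rab34*, which has been tied to the position of lysosomes, had 0.14 and 0.12. None of these 4 had an unadjusted p under 0.05. *Rab19*, *Rab33b*, *Rab39a* and *Rab43* were detected on no array and were not tested.

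Rabs of the route from the trans-Golgi to the plasma membrane were 2 of 3. *Rab13*, known from tight junctions and neurite growth, had 6.70 and 6.95 in the TRF2-S RIP and 6.99, 6.99, 7.85, 7.49 and 7.68 on the IgG arrays. The TRF2-S values were the 2 lowest, by a small step from IgG1 and IgG2. The gene was not detected on TRF2-1, so its value there was not above background. The log2 differences were -0.57 (SE 0.26, adjusted p = 0.406) and -0.16 (SE 0.12, adjusted p = 0.682). *Rab10*, which adds membrane to the growing axon, had -0.11 against the full IgG set and 0.11 against the IgG1/IgG2 pair. *Rab8a* was detected on TRF2-2 alone and was not tested.

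Early endosome Rabs were tested for 5 of 7 genes. In each comparison 3 were above 0 (60%, beside 41.3% and 51.4% of all probes), with medians of 0.23 and 0.08. The 3 forms of Rab5, which drive the fusion of early endosomes, are given side by side. *Rab5b* read 7.71 and 8.16 in the TRF2-S RIP and 7.78, 7.75, 6.47, 6.55 and 6.49 on the IgG arrays. TRF2-1 lay below IgG1 and IgG2, and the gene was not detected on the IgG3-named arrays. The fitted log2 fold change, in which 3 of the 5 controls were not above background, was 0.92 (SE 0.44, adjusted p = 0.406) against the full IgG set and 0.17 (SE 0.16, adjusted p = 0.76) against the IgG1/IgG2 pair.

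*Rab5c* had 8.34 and 8.51 in the TRF2-S RIP and 8.36, 8.71, 8.94, 8.88 and 8.96 on the IgG arrays, and the groups overlapped. The log2 differences were -0.35 and -0.11. *Rab5a* was detected on 2 arrays only, IgG1 and TRF2-2, and had 0.29 and 0.13. *Rab21*, which carries integrins inward, had 0.00 against the full IgG set and -0.01 against the IgG1/IgG2 pair. *Rab31*, also called Rab22b, had 0.23 and 0.08 and was likewise detected on IgG1 and TRF2-2 alone. *Rab17* and *Rab22a* were detected on no array.

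All 7 recycling endosome Rabs were tested. Against the full IgG set 5 were above 0 (71.4%, beside 41.3% of all probes) with a median of 0.04. Against the IgG1/IgG2 pair 6 were (85.7%, beside 51.4%) with a median of 0.04. *Rab11a* marks the recycling endosome that returns receptors to the surface. It had 8.87 and 8.88 in the TRF2-S RIP, 8.64 and 8.65 on IgG1 and IgG2, and 9.71, 9.46 and 9.74 on the IgG3-named arrays. The TRF2-S arrays again lay between the 2 kinds of control. It came to -0.37 (log2 fold change, SE 0.35, adjusted p = 0.536) against the full IgG set and 0.23 (SE 0.10, adjusted p = 0.436) against the IgG1/IgG2 pair. *Rab11b*, its brain-enriched relative, had log2 fold changes of 0.02 and 0.24 (adjusted p = 0.48 in the latter).

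*Rab14*, which links the Golgi and early endosomes, had 8.82 and 8.92 in the TRF2-S RIP, beside 8.61 and 8.93 on IgG1 and IgG2 and 7.90 to 8.15 on the IgG3-named arrays. The log2 fold change was 0.54 (adjusted p = 0.406) and 0.10. *Rab4a*, of the fast recycling route, had 0.18 and 0.04. The related *Rab4b* had -0.20 and 0.00 and was detected on IgG3 and IgG3_1x only. It is 1 of the 6 genes counted above 0 against the pair, at 1e-04 and not above background on any array compared there. *Rab15*, known for an inhibitory role in endocytosis, had 0.04 and -0.06 and was detected on IgG1, IgG2 and IgG3 only. On the TRF2-S arrays it had no more than a bound, which put IgG1 and IgG2 at least 1.04-fold higher. *Rab25*, an epithelial relative of Rab11, had 0.16 and 0.02. None of the 32 genes entered the test through the TRF2-S arrays alone.

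Late endosome and lysosome Rabs held the gene with the lowest p of the family, with 3 of 7 genes tested. *Rab9a* returns mannose 6-phosphate receptors from late endosomes to the trans-Golgi. It had 8.72 and 8.76 in the TRF2-S RIP, 7.99 and 8.08 on IgG1 and IgG2, and 9.65, 9.50 and 9.62 on the IgG3-named arrays. All 3 kinds of array were apart, with TRF2-S in the middle. The log2 fold change against the IgG1/IgG2 pair was 0.70 (SE 0.11, adjusted p = 0.0837, interval 0.45 to 0.95), a 1.63-fold difference that missed the threshold. By p it stood at rank 32 of the 9187 probes. With all 5 controls it was -0.23 (SE 0.53, adjusted p = 0.799, interval -1.47 to 1.01).

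The call on *Rab9a* against the IgG1/IgG2 pair changed with the processing. It passed under quantile normalization (0.62, adjusted p = 0.00306), under background correction with neqc (0.82, adjusted p = 0.0332) and without the detection filter (adjusted p = 0.0328). With replicate number as a block it also passed (adjusted p = 0.00238). It did not pass under median centring (0.59), without normalization (0.62) or with probes detected on every array compared (adjusted p = 0.0795). Nor did it with the mean over a gene's probes (adjusted p = 0.0815) or the analysis of variance per probe (adjusted p = 0.601). Leaving out 1 array leaves 1 in its group, and gave 0.65 without IgG1, 0.75 without IgG2, 0.72 without TRF2-1 and 0.68 without TRF2-2. The direction was the same in all alternatives of this comparison. *Rab7a*, which governs late endosome maturation and transport, had -0.24 against the full IgG set and 0.11 against the pair. *Rab24*, associated with autophagosomes, had 10.62 and 10.21 in the TRF2-S RIP and 10.51, 10.74, 9.89, 10.35 and 10.00 on the IgG arrays. The groups overlapped, and the log2 fold change was 0.12 and -0.21. *Rab7b*, *Rab9b*, *Rab12* and *Rab38* were detected on no array.

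Of the Rabs placed in none of these compartments, *Rab28*, a ciliary Rab, had 10.33 and 10.31 in the TRF2-S RIP and 10.25, 9.94, 10.00, 10.00 and 10.07 on the IgG arrays. The groups did not overlap. It differed by 0.27 (log2 fold change, SE 0.12, adjusted p = 0.406) and 0.22 (SE 0.13, adjusted p = 0.564). Without scaling of the arrays or with median centring the first of these fell below 0. *Rab40b*, which carries a SOCS box and joins a ubiquitin ligase, had 7.57 and 7.89 in the TRF2-S RIP and 7.83, 7.93, 8.01, 7.59 and 8.01 on the IgG arrays, with overlapping groups. The log2 differences were -0.14 and -0.15. *Rab23* was detected on no array and *Rab40c* on TRF2-2 alone.

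At the edge of the detection rule, *Rab4b*, *Rab5a* and *Rab31* entered with 2 arrays, and *Rab3c* (IgG3_1x), *Rab8a* (TRF2-2) and *Rab40c* (TRF2-2) stayed out with 1. In normalized log2 signal, *Rab5a* ranged from 6.39 to 6.91 over the 7 arrays, *Rab31* from 6.40 to 6.84 and *Rab4b* from 6.22 to 6.68. *Rab3c* ranged from 6.32 to 6.66, *Rab8a* from 6.03 to 6.66 and *Rab40c* from 6.21 to 6.80. With all probes kept, 29 of 46 *Rab* genes were above 0 in each comparison. The share of all probes above 0 was not counted at this setting. The medians of the *Rab* genes were 0.044 and 0.037, beside 0.005 and -0.001 for all probes.

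**Figure D3:**
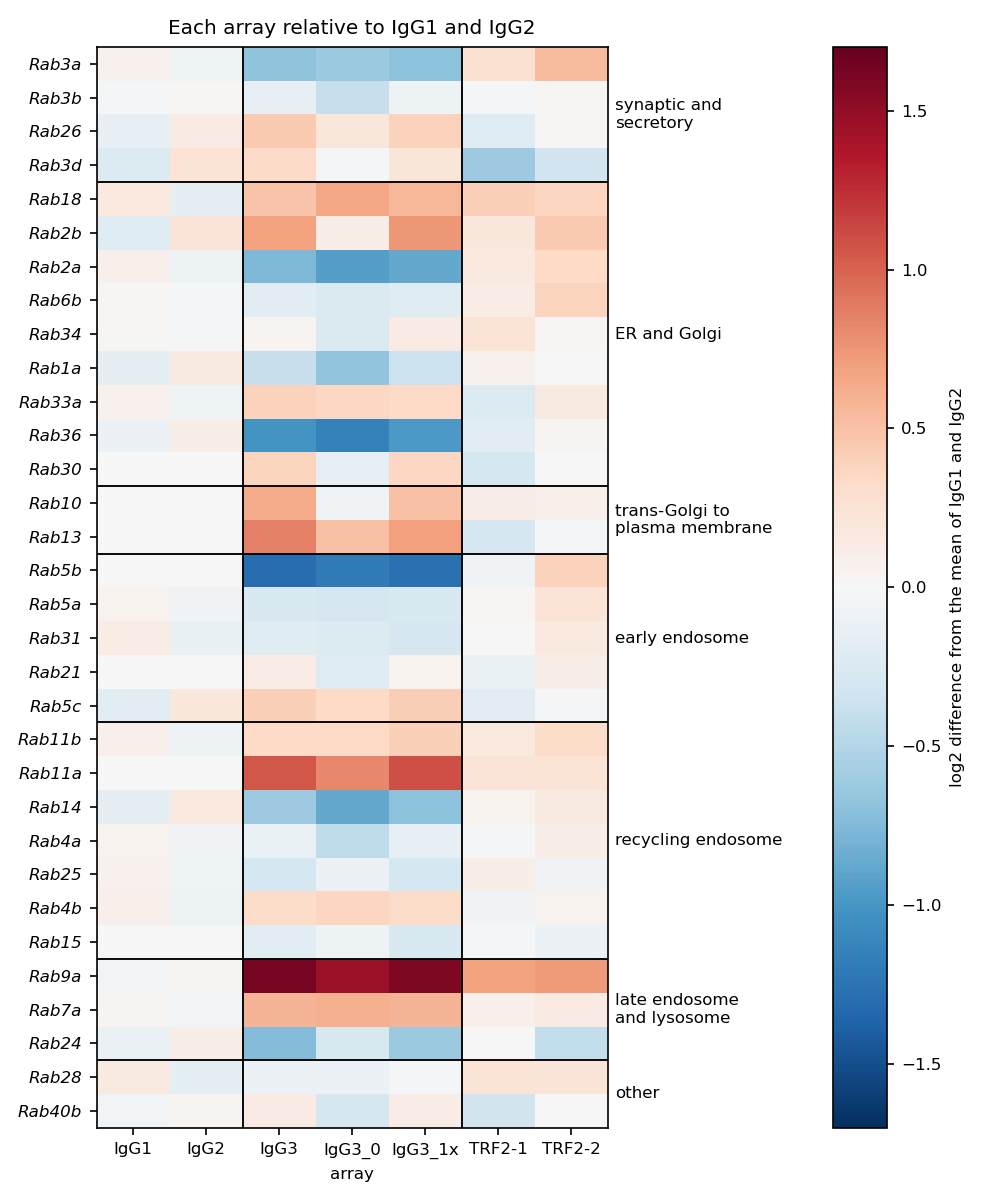
Log2 difference of each array from the mean of IgG1 and IgG2 for the 32 Rab genes, by compartment; vertical lines part IgG1 and IgG2, the IgG3-named arrays and the TRF2-S arrays. The strongest colours are on the IgG3-named arrays, with a mean difference of 1.55 for Rab9a and 0.99 for Rab11a, and Rab5b and Rab36 are not above background there, while Rab3a and Rab3d have opposite colours in the TRF2-S RIP.

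The IgG3-named arrays lay further from IgG1 and IgG2 than the TRF2-S arrays did in the median over the genes. Of the 32 genes, 10 had all 3 IgG3-named arrays above IgG1 and IgG2, 14 had them below and 8 overlapped (75% apart, beside 68.89% of all probes). The median size of this difference was 0.36 for the *Rab* genes and 0.32 for all probes, beside 0.13 for the *Rab* genes in the TRF2-S RIP. *Rab9a* was 1.55 and *Rab11a* 0.99 higher on the IgG3-named arrays. The difference was -0.86 for *Rab2a* and -0.67 for *Rab3a*. *Rab5b* and *Rab36* were not above background on the IgG3-named arrays, so IgG1 and IgG2 were at least 2.24-fold and at least 1.87-fold higher, a bound set by the dimmest detected probe of each array. IgG3 and IgG3_1x were a median of 0.05 apart over the *Rab* genes, at most 0.16 (*Rab13*). IgG3 and IgG3_0 were 0.19 apart, at most 0.69 (*Rab10*). Set against the IgG1/IgG2 pair, the median of the 32 genes was 0.02 on TRF2-1 and 0.10 on TRF2-2, and 0.08, -0.12 and 0.10 on the IgG3-named arrays in the usual order. Over all tested probes the medians were -0.03 on TRF2-1 and 0.03 on TRF2-2, and 0.16, 0.01 and 0.14 on the IgG3-named arrays. The *Rab* median was thus above that of all probes on both TRF2-S arrays and below it on all 3 IgG3-named arrays. By themselves, the *Rab* medians on the TRF2-S arrays lay within the IgG3-named range, but for under 0.01 on TRF2-2.

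The proteins that load, unload and read Rabs were followed on a list of 127 genes, of which 88 were on the array and 54 were tested. None passed an adjusted p of 0.05 in either comparison. At an unadjusted p under 0.05, 2 were higher than the full IgG set (3.7%, beside 6.06% of all probes) and 5 were lower (9.26%, beside 6.06%). Above 0 were 22 of 54 (40.7%, beside 41.3%), with a median of -0.13. With the pair as control 0 were higher (beside 6.51% of all probes) and 2 were lower (3.7%, beside 6.02%), and 23 were above 0 (42.6%, beside 51.4%) with a median of -0.04. The median of the list was below that of all probes in both (-0.07 and 0.00).

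Both genes with a low p in the 2 comparisons belong to the GTPase-activating proteins with a TBC domain. *Sgsm3* had 8.09 and 8.38 in the TRF2-S RIP and 8.68, 8.69, 8.69, 8.40 and 8.67 on the IgG arrays. TRF2-S was below all, with TRF2-2 next to IgG3_0. Its log2 fold change was -0.39 (SE 0.14, adjusted p = 0.406) and -0.45 (SE 0.13, adjusted p = 0.242). *Tbc1d22b* had 8.89 and 9.09 in the TRF2-S RIP and 9.18, 9.64, 9.87, 9.91 and 9.87 on the IgG arrays, and the groups did not overlap. It differed by -0.71 (log2, SE 0.21, adjusted p = 0.406) and -0.42 (SE 0.17, adjusted p = 0.371). Of 9 tested GTPase-activating proteins, 5 were above 0 against the full IgG set (beside 41.3% of all probes) and 7 against the IgG1/IgG2 pair (beside 51.4%).

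Among 17 tested exchange factors were 6 subunits of the TRAPP complex, which activates Rab1. Of the 17, 2 had an unadjusted p under 0.05 against the full IgG set, beside 6.06% of all probes higher and 6.06% lower. Both were TRAPP subunits and were higher. None of the 17 had such a p against the IgG1/IgG2 pair. *Trappc1* had a log2 fold change of 0.38 and *Trappc4* of 0.37 (adjusted p = 0.406 for both). With the pair as control they had 0.17 (adjusted p = 0.63) and 0.20 (adjusted p = 0.6). The other subunits lay on both sides of 0 against the full IgG set, with -0.28 for *Trappc5*, -0.22 for *Trappc6b*, 0.02 for *Trappc2* and 0.11 for *Trappc3*. The Rab3 exchange factor *Madd* had 0.21 and -0.01 and was detected only on IgG1, IgG2 and 1 TRF2-S array. *Rab3ip*, which activates Rab8, had 0.07 and 0.00. *Golga2*, a Golgi tether that binds Rab1, had -0.54 (adjusted p = 0.406) and -0.26. For the endosomal effectors *Plekhm2* and *Rufy1* the values against the full IgG set were -0.65 and -0.62 (adjusted p = 0.406 for both), and -0.39 and -0.28 against the pair.

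The 3 tested Rab3 effectors of the Rim family lay on both sides of 0. *Rims1*, the active-zone scaffold that binds Rab3a, had 0.26 (adjusted p = 0.406) and 0.16. *Rims3* had 0.22 and 0.07 and was detected on the 2 TRF2-S arrays but on only 1 of the 5 IgG arrays. *Rims2* had -0.29 and -0.19 and was not detected on either TRF2-S array, so its difference against the full IgG set is a bound of at least 1.10-fold. *Gdi2*, a GDP dissociation inhibitor, had -0.41 (adjusted p = 0.406) and -0.15, *Rabac1*, a receptor for prenylated Rabs, 0.18 and -0.23, and *Chm*, the Rab escort protein, 0.04 and 0.04. Of the prenylation enzymes, *Rabggta* had -0.22 and -0.05, and *Rabggtb* 0.05 and -0.15.

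**Figure D4:**
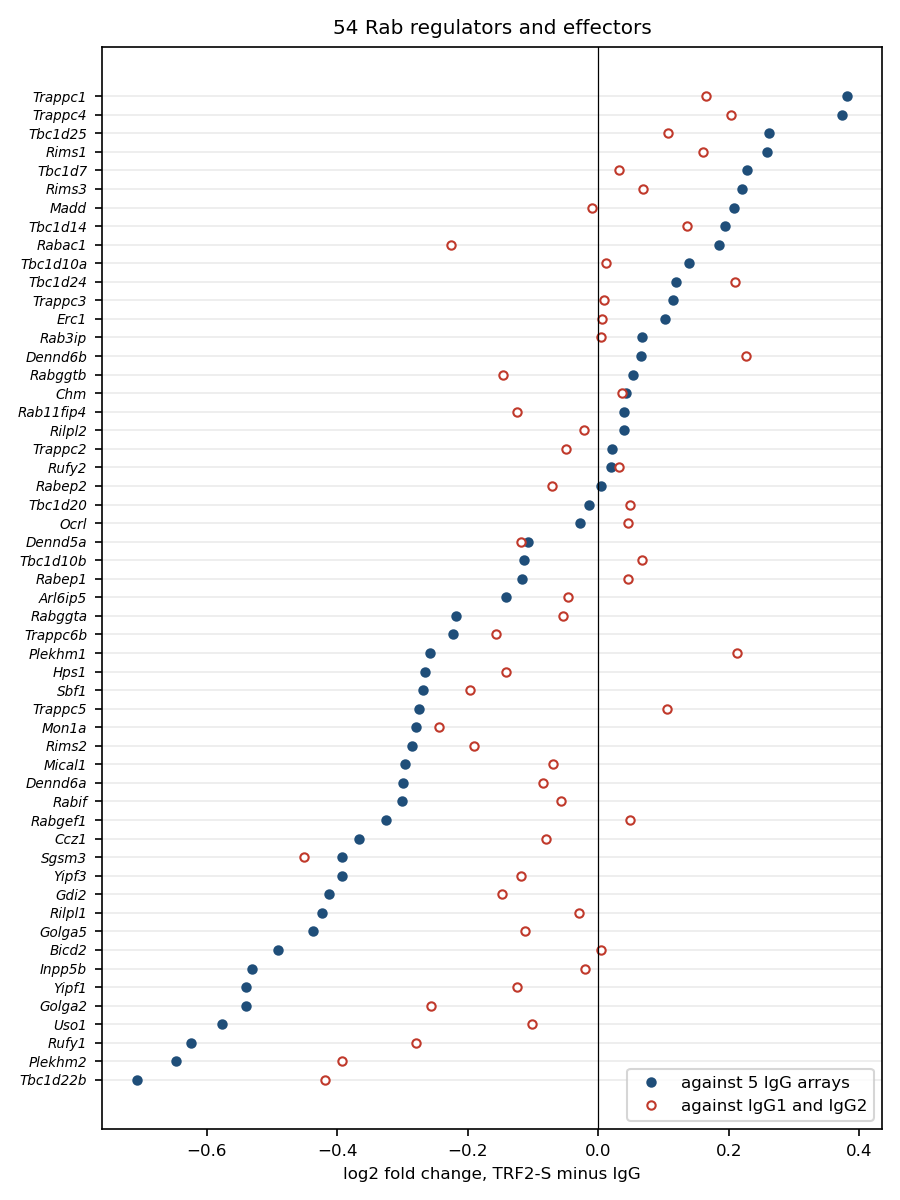
Log2 fold change (TRF2-S minus IgG) of the 54 tested Rab regulators and effectors, ordered by the value against the full IgG set (filled) with the value against the IgG1/IgG2 pair beside it (open). Trappc1 (0.38) and Tbc1d22b (-0.71) are the ends of the filled points, and the open points spread less, down to -0.45 for Sgsm3.

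The probe sequences were not used here, so hybridization between close copies such as *Rab2a* and *Rab2b* or *Rab11a* and *Rab11b* could not be checked.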

How the data were processed

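RNA from 2 TRF2-S RIP and 5 IgG RIP arrays (Illumina rat Ref-12) was analysed. The authors deposited a signal intensity per probe, not normalized between arrays, a detection p-value against the negative control beads, and a score equal to the Z-score of the log intensity to within 5e-10. The submitters' processing notes name GenomeStudio 2011.1. From the deposited intensities, log2 values were turned into Z-scores per array and put back with a common mean of 6.98 and SD of 1.21. A probe was tested if 2 or more arrays detected it (p under 0.02), with limma 3.58.1 (lmFit, eBayes) in R 4.3.3, and p-values were adjusted over 9187 probes (Benjamini-Hochberg). The log2 SD of the arrays ran from 0.92 to 1.61 before scaling, so scaling stretched differences on some arrays and shrank them on others. The number of arrays limits the precision.

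Symbols came from the platform annotation, and all 47 *Rab* probes kept their symbol in RefSeq (GRCr8). Every tested *Rab* gene was named. Array values were given for the Rab3 genes, for genes with an unadjusted p under 0.05 and for the 4 highest and 4 lowest of each comparison, and for *Rab28* and *Rab14*, added after their values were seen. Regulators named were *Gdi2*, the Rab3 regulators and effectors and those with such a p, and *Chm*, *Rabac1*, *Rabggta* and *Rabggtb* were added after their values were seen. The members, the compartments and the gene lists were chosen with earlier results of these data known. Alternatives were quantile normalization, median centring, no normalization, neqc (offset 16), the deposited scores, other filters, means over a gene's probes, an analysis of variance per probe as in the methods, a replicate block, the IgG3-named arrays averaged or as a random block, and leaving out each array. The scripts were tested on simulated data.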

Additional observations from a re-analysis of the deposited data

How the results depend on the processing

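No *Rab* gene was called under median centring, without normalization, with the deposited scores, with probes detected on every array compared or with the mean over a gene's probes. None was called with the analysis of variance per probe after adjustment, which is stricter than the study's use of that test. Against IgG1 and IgG2, 2 *Rab* genes (*Rab3d*, *Rab9a*) were called under quantile normalization, 1 (*Rab9a*) with neqc and 1 (*Rab9a*) without the filter, while over all probes the calls went from 14 to 554, 102 and 36. Leaving out 1 array gave 0 to 2 *Rab* genes, with 2 without IgG1 (298 probes), 1 without IgG2 (46 probes) and 0 without either TRF2-S array (0 probes). With replicate number as a block, which keeps IgG1, IgG2 and the TRF2-S arrays, 2 *Rab* genes (*Rab3d*, adjusted p = 0.0219, and *Rab9a*, adjusted p = 0.00238) and 2 regulators were called in both comparisons, among 648 probes. Same-numbered arrays share only a number, and their deviations correlated at 0.28. One regulator was called against IgG1 and IgG2 under quantile normalization, and 0 to 1 when 1 array was left out (1 without IgG1). The median log2 fold change of the *Rab* genes minus that of all probes was 0.11 against 5 IgG arrays, and it was 0.16 under quantile normalization, -0.033 under median centring and -0.033 without normalization, 0.24 with neqc, 0.039 without the filter, 0.17 with probes detected on every array, 0.056 with the replicate block, 0.14 with the IgG3-named arrays averaged, 0.14 with them as a random block and 0.091 to 0.178 when 1 array was left out. Without normalization *Rab6b* (-0.043) and *Rab2a* (-0.031) reversed against 5 IgG arrays. The cause of these changes was not tested. *Rab4b*, *Rab5a*, *Rab31*, *Rab15*, *Rab36* and *Rab5b* were detected on 2 to 4 arrays, which limits their fold changes. *Rab13* was not detected on TRF2-1, which limits its fold changes as well.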
